A study of Mus musculus with 6 samples.

Results

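The genes described here are 10 feedback inhibitors of mitogen-activated protein kinase (MAPK) signaling, namely the dual-specificity phosphatases *Dusp1*, *Dusp4*, *Dusp6*, *Dusp8*, *Dusp10*, *Dusp16* and *Dusp26*, the Sprouty genes *Spry1* and *Spry2*, and the Sprouty-related gene *Spred1*. They were chosen by name, and all 10 were found among the 24532 genes of the deposited table. The study used RNA-seq to compare gastrocnemius (GAS) muscle of male C57BL/6 mice of about 20 weeks of age, with 3 libraries per group. Both groups carried *Sirt6* flox/flox alleles. The controls, labelled WT, had no Cre, and the animals labelled Sirt6 KO also carried *Myl1-Cre*, which is active mainly in fast myofibers and from embryonic muscle differentiation onward. Slow fibers and the non-muscle cells of the tissue are therefore not the main target of the deletion, and an effect of Cre itself cannot be told apart from that of the deletion in this design. The sources name different *Sirt6* flox lines.

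MAPKs are activated when both a threonine and a tyrosine of their activation loop are phosphorylated, and dual-specificity phosphatases (DUSPs) remove both phosphates. Many of these phosphatases are themselves induced by MAPK signaling, so that they close a negative feedback loop. Sprouty and Spred proteins act further upstream, between growth factor receptors, RAS and RAF, and are likewise induced by the pathway they restrain. In skeletal muscle, MAPKs respond to contraction, stress and growth factors.

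Total counts on genes lay between 44845763 and 63016899 per library, and all 10 genes passed the filter on low counts, with between 43 and 4310 counts in a library. For *Sirt6* itself, WT libraries had 2.77, 2.23 and 2.88 CPM (normalized read counts, scaled to library size), and those labelled Sirt6 KO had 7.81, 7.44 and 6.68, so that it was higher and not lower in the latter. One count covers the whole gene, deleted exons included. The libraries are therefore named by their labels, and every direction below rests on those labels. WT library 3 stood apart from WT libraries 1 and 2: the summed level of 8 slow fiber markers, of which *Myh7* was the most abundant, was 3580 and 2950 CPM in WT libraries 1 and 2 but 133 in WT library 3, and it was 361, 2110 and 502 in libraries 1, 2 and 3 labelled Sirt6 KO. The labelled tissue held, with no marker at 0 in all libraries, 8 fast fiber markers at a summed level of 130000 to 208000 CPM in WT and 184000 to 217000 CPM in the libraries labelled Sirt6 KO.

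Since the study centres on the cAMP response element-binding protein (CREB), the promoters of the 10 genes were searched for the letters of its binding element (CRE). RefSeq promoter windows on GRCm38.p6, from 250 bases before to 50 bases after an annotated start, were matched by symbol for 8 of the 10 genes; *Dusp4* and *Dusp26* were not matched. The full element TGACGTCA, which reads the same on both strands, was in 2 of these 8 windows, those of *Dusp1* and *Dusp8*, against 1.79% of all 32851 windows. The shorter core site, TGACG on one strand or CGTCA on the other, is contained in the full element and was also in the window of *Dusp16*; 20.8% of all windows held it. No window of the 8 held TGANTCA, the letters of an AP-1 site, or a CArG box, which 7.81% and 1.63% of all windows held. The 3 windows with a match are shown, with full elements and further core sites in capitals. They lie at chr17:26508423-26508722 (minus strand), chr7:142095235-142095534 (minus strand) and chr6:134792579-134792878 (minus strand). For *Dusp8* and *Dusp16* the gene reaches past the window, so that these windows belong to one of several annotated starts.
Dusp1: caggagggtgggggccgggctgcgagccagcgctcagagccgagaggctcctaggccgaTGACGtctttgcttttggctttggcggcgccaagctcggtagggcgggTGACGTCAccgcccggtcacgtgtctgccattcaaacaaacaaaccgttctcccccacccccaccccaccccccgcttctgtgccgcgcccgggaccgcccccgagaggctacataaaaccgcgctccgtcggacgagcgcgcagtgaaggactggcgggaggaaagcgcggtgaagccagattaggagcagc
Dusp8: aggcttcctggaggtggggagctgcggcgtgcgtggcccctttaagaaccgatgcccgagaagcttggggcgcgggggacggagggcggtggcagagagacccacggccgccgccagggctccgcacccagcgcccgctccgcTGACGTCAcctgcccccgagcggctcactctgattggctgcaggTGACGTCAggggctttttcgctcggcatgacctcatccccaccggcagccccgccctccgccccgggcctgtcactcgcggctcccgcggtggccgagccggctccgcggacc
Dusp16: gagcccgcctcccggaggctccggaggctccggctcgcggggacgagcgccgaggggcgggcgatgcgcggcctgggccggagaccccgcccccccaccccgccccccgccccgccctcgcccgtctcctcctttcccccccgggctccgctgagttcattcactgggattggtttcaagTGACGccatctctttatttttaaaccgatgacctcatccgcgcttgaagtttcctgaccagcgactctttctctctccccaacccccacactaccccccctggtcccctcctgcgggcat
The full element began 143 bases before the start in *Dusp1*, and 107 and 63 bases before it in *Dusp8*. A match in these letters describes the window only, and binding was not measured in this dataset.

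*Dusp1*, a nuclear phosphatase induced within minutes by stress and growth factors, was the only one of the 10 genes to pass the threshold, and it was lower in the libraries labelled Sirt6 KO. None of the others passed it. At an adjusted p under 0.05 in edgeR's quasi-likelihood test, 1 of 10 genes was lower and 0 were higher, against 8.39% lower and 7.85% higher of the 13801 genes tested. This is close to the background, and at an unadjusted p under 0.05 there were 3 of 10 genes against 35.3% of all genes. Past a 2-fold limit, which the study also set, and at an unadjusted p under 0.05 in edgeR, 1 gene was lower against 4.69% of all genes, and 0 were higher against 3.14%. The median log2 fold change of the 10 genes was -0.21 beside -0.021 for all genes tested, and 8 of 10 estimates lay below 0, as did 7121 of the 13801.

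The count was set against the background in the same way under each alternative. It stayed at 1 gene lower and 0 higher with DESeq2's size factors (8.43% of genes tested lower and 8.06% higher), without a filter on low counts (5.21% and 4.83%), with at least 10 counts in every library (9.47% and 8.99%) and with the trend over GC content removed (3.52% and 3.41%). DESeq2's Wald test (13.0% and 12.5%) and the slow fiber markers as a covariate (15.2% and 15.0%) each called *Dusp1* and *Spred1* lower. No gene of the 10 was called by limma on log2(FPKM + 1) (11.0% and 13.7%) or log2(FPKM + 0.1) (11.1% and 13.6%), or with a replicate block (7.38% and 6.55%). Without WT library 3, 3 genes were lower (*Dusp1*, *Dusp4* and *Spred1*) and *Dusp10* was higher, against 16.2% and 17.0% of all genes. None was called without WT library 1 (1.91% lower and 1.38% higher) or WT library 2 (1.17% and 0.754%), nor without library 1 (0.0145% and 0.0435%), library 2 (3.31% and 3.20%) or library 3 (0.0362% and 0.0580%) labelled Sirt6 KO, so that single libraries also set how many genes were called in the whole table.

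**Figure D1:**
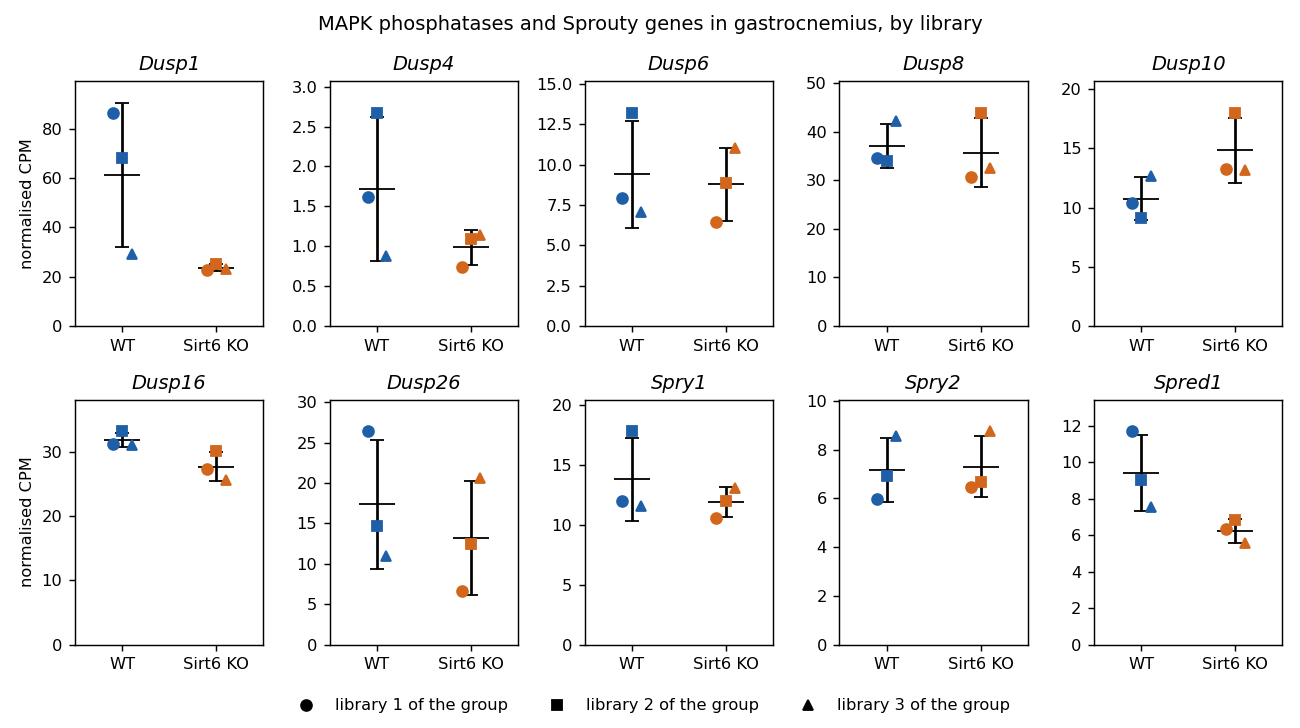
Normalized CPM (vertical axes, linear and starting at 0) of the 10 genes in each of the 6 libraries; symbols give the library number within its group, horizontal bars the mean and vertical bars the SD of 3 libraries. *Dusp1* was at 86.4 and 68.2 CPM in WT libraries 1 and 2 and between 22.6 and 29.3 in the other four.

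In the WT libraries 1, 2 and 3, *Dusp1* (gene 19252, chr17:26505591-26508472), placed here as the others on GRCm38 with its NCBI gene number, stood at 86.4, 68.2 and 29.3 CPM, and it stood at 22.6, 25.3 and 23.2 CPM in libraries 1, 2 and 3 labelled Sirt6 KO. The groups did not overlap, but WT library 3 was only 1.16 times as high as the highest library labelled Sirt6 KO, and the distance between the groups came from WT libraries 1 and 2. The mean was 61.3 ± 29.2 CPM (SD, n = 3) in WT and 23.7 ± 1.41 CPM (SD, n = 3) in the other group. On the log2 scale this was a fold change of -1.37 (standard error 0.35, 95% interval -2.18 to -0.56, adjusted p = 0.0393 in edgeR), and the two-sided exact permutation test gave p = 0.1, the smallest that 3 libraries against 3 allow. In RNA of whole muscle, fewer cells that express a gene and less of its RNA per cell cannot be told apart.

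The call of *Dusp1* rested on single libraries. Left out in turn, each of WT libraries 1 and 2 and the 3 libraries labelled Sirt6 KO took the adjusted p above 0.05, to between 0.0866 and 0.129, whereas without WT library 3 it was 0.00393 with a log2 fold change of -1.71. The fold change itself stayed between -1.71 and -1.03 over these 6 fits. It was -1.34 without library 1 and -1.35 without library 3 labelled Sirt6 KO. Those fits called 0.0145% and 0.0362% of all genes lower, so that a lost call there is not particular to *Dusp1*. With DESeq2's Wald test the adjusted p was 0.000817, and over all 15 alternatives it ranged from 0.000817 to 0.129. With the slow fiber markers as a covariate the log2 fold change was -1.12 (adjusted p = 0.00537 in edgeR).

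Summed markers of some other cells were also highest in WT libraries 1 and 2, in which *Dusp1* was high. The summed level of 6 endothelial markers was 240 and 269 CPM in WT libraries 1 and 2, 142 in WT library 3, and between 176 and 188 in the other group. Of these markers, *Pecam1* and *Tek* were singly highest in WT libraries 1 and 2. WT library 3 lay among the libraries labelled Sirt6 KO for both, at 59.6 CPM against 51.7 to 60.8 for *Pecam1* and 20.6 CPM against 19.4 to 21.4 for *Tek*. *Kdr*, *Egfl7* and *Cldn5* were instead highest in library 3 labelled Sirt6 KO, at 25.4, 25.7 and 14.5 CPM. *Cdh5* was at 51.6 CPM in WT library 1, below the 53.9 CPM of library 1 labelled Sirt6 KO. The 5 erythroid markers summed to 297 and 291 CPM in WT libraries 1 and 2, to 46.6 in WT library 3, and to between 80.2 and 181 in the others. Of these, *Hbb-bt* was at 0 in WT library 3 and in libraries 1 and 3 labelled Sirt6 KO. *Hbb-bs*, the most abundant, was also highest in WT libraries 1 and 2, at 132 and 125 CPM. *Hba-a2* was instead higher in library 2 labelled Sirt6 KO (2.79 CPM) than in WT library 2 (1.95 CPM). The 6 fibroblast markers summed to 1010 and 790 CPM in WT libraries 1 and 2, 551 in WT library 3 and between 676 and 753 in the other group. Singly they were mixed. *Dcn*, the most abundant, was at 533 and 445 CPM in WT libraries 1 and 2. The collagens *Col1a1*, *Col3a1* and *Col1a2* were instead highest in library 1 labelled Sirt6 KO, at 126, 215 and 181 CPM. The sums of macrophage markers (23.8 to 77.5 CPM in WT, 31.7 to 42.6 in the libraries labelled Sirt6 KO) and adipocyte markers (123 to 251 against 161 to 286) were not highest in WT libraries 1 and 2. All of these sums overlapped between the groups, and no gene of these 5 lists passed the threshold. The summed Schwann cell markers (12.6 to 33.5 CPM against 10.9 to 21.9) overlapped as well. Satellite cell markers were mixed. Of 6, *Pax7*, *Myf5* and *Cdh15* were higher than in WT, while *Calcr* (log2 fold change -0.63), *Chrdl2* (-0.76) and *Chodl* (-0.49) had estimates below 0 and did not pass. Their sum, 29.1 to 35.0 CPM in WT against 39.8 to 54.5, was mostly *Cdh15*. No marker was at 0 in all libraries, and the part of these cells in the level of *Dusp1* was not tested.

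*Dusp4* (gene 319520, chr8:34807610-34819894), a nuclear phosphatase closely related to *Dusp1*, was the scarcest of the 10 genes, with 43 to 126 counts per library. It was at 1.62, 2.67 and 0.873 CPM in WT and at 0.735, 1.09 and 1.14 CPM in those labelled Sirt6 KO. As for *Dusp1*, WT libraries 1 and 2 were the highest, but WT library 3 fell among the libraries labelled Sirt6 KO, and the log2 fold change of -0.80 (95% interval -1.80 to 0.21) did not pass (adjusted p = 0.226, edgeR). Without WT library 3 it was -1.12 with an adjusted p of 0.0453 in edgeR, and without WT library 2 it was -0.33, with adjusted p-values of 0.0453 to 0.628 over its 15 alternatives.

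*Dusp6* (gene 67603, chr10:99263231-99267489), a cytoplasmic phosphatase selective for ERK kinases and a usual readout of ERK activity, was at 7.92, 13.2 and 7.08 CPM in WT and at 6.46, 8.89 and 11.0 CPM in the other group. The groups overlapped throughout, with WT library 2 the highest of the 6. Its log2 fold change was -0.10, with a 95% interval of -0.76 to 0.57, so that changes up to these sizes are not separated from the spread between animals. Left-out libraries moved the estimate between -0.29 and 0.23.

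*Dusp8*, *Dusp10* and *Dusp16* encode phosphatases that prefer the stress-activated kinases JNK and p38 to ERK. *Dusp8* (gene 18218, chr7:142079487-142095907) was at 34.7, 34.1 and 42.3 CPM in WT and at 30.7, 43.9 and 32.6 CPM in the other group, a log2 fold change of -0.05 (95% interval -0.44 to 0.33). It thus differed by less than the spread within either group, which was 1.24 times from the lowest to the highest WT library. *Dusp10* (gene 63953, chr1:184034381-184075636) was the one gene of the 10 whose libraries labelled Sirt6 KO all lay above WT, at 13.3, 18.0 and 13.2 CPM against 10.4, 9.14 and 12.7. Its estimate of 0.46 on the log2 scale (standard error 0.18, adjusted p = 0.119, edgeR) did not pass, and the gap between the groups was small beside the spread within them. *Dusp16* (gene 70686, chr6:134715468-134807063) was at 31.3, 33.2 and 31.1 CPM in WT and at 27.4, 30.1 and 25.6 CPM in the libraries labelled Sirt6 KO. It was the steadiest of the 10 genes, at 1.29 times from the lowest to the highest of the 6 libraries. Its groups did not overlap, with an estimate of -0.20 on the log2 scale (standard error 0.10, adjusted p = 0.204, edgeR).

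*Dusp26* (gene 66959, chr8:31089527-31097046) encodes a small atypical phosphatase without the kinase-binding domain of the genes above. It varied most, 4.02 times over the 6 libraries, at 26.4, 14.7 and 11.0 CPM in WT and at 6.58, 12.5 and 20.6 CPM in the libraries labelled Sirt6 KO. Each group held a high and a low library, and the 95% interval of its log2 fold change of -0.39 reached from -1.44 to 0.66.

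*Spry1* (gene 24063, chr3:37639947-37644599), which in muscle is known for its part in satellite cell quiescence, was at 12.0, 17.8 and 11.6 CPM in WT and at 10.6, 12.0 and 13.1 CPM in the libraries labelled Sirt6 KO. WT library 2 was the highest and the other five lay close together, with a log2 fold change of -0.21 (95% interval -0.66 to 0.23). *Spry2* (gene 24064, chr14:105891947-105896819), a broadly expressed inhibitor of receptor tyrosine kinase signaling, was at 5.99, 6.92 and 8.57 CPM in WT and at 6.48, 6.68 and 8.75 CPM in the other group. The log2 fold change was 0.03 (95% interval -0.43 to 0.48), the smallest of the 10 in size.

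*Spred1* (gene 114715, chr2:117121071-117182279) brings the RAS inhibitor neurofibromin to the membrane. It was at 11.7, 9.02 and 7.54 CPM in WT and at 6.32, 6.83 and 5.56 CPM in the libraries labelled Sirt6 KO, without overlap. The mean was 9.42 ± 2.11 CPM (SD, n = 3) against 6.24 ± 0.641 CPM (SD, n = 3), or -0.59 on the log2 scale (standard error 0.19), which did not pass (adjusted p = 0.0741, edgeR). DESeq2 gave an adjusted p of 0.0343, and over the 15 alternatives it ranged from 0.0203 to 0.321. With the trend over GC content removed, the estimate was -0.31.

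By values alone, the groups did not overlap in 4 of the 10 genes, against 40.0% of all genes tested. These were *Dusp1*, *Dusp16* and *Spred1*, with lower values in the libraries labelled Sirt6 KO (19.6% of all genes), and *Dusp10*, with higher ones (20.3%). Each of these 4 had an exact permutation p of 0.1, the smallest possible.

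**Figure D2:**
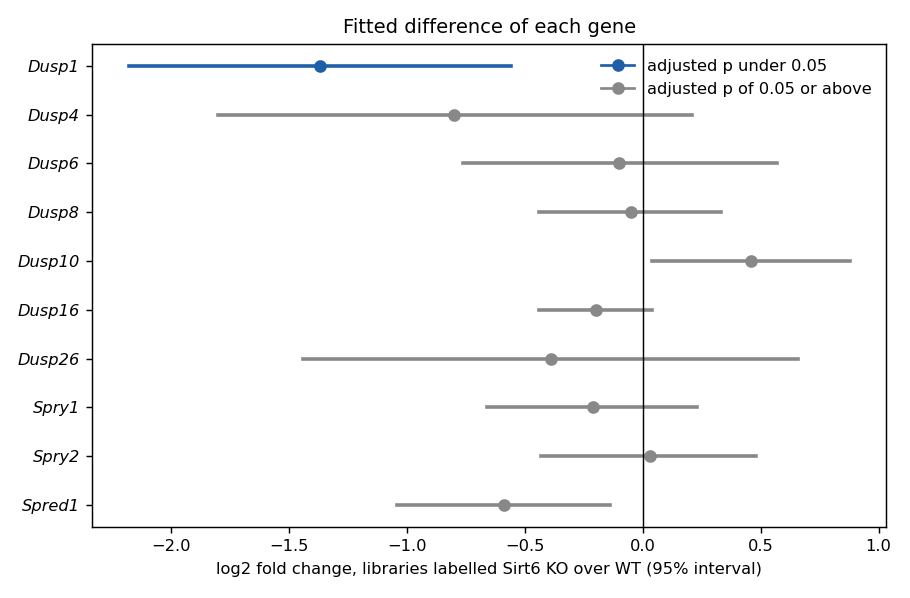
Fitted log2 fold change (points, horizontal axis) with its 95% interval (lines) for each of the 10 genes, libraries labelled Sirt6 KO over WT. The interval excluded 0 for *Dusp1* (-2.18 to -0.56), *Spred1* (-1.04 to -0.14) and *Dusp10* (0.04 to 0.88), and *Dusp1* alone passed after adjustment over all genes.

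**Figure D3:**
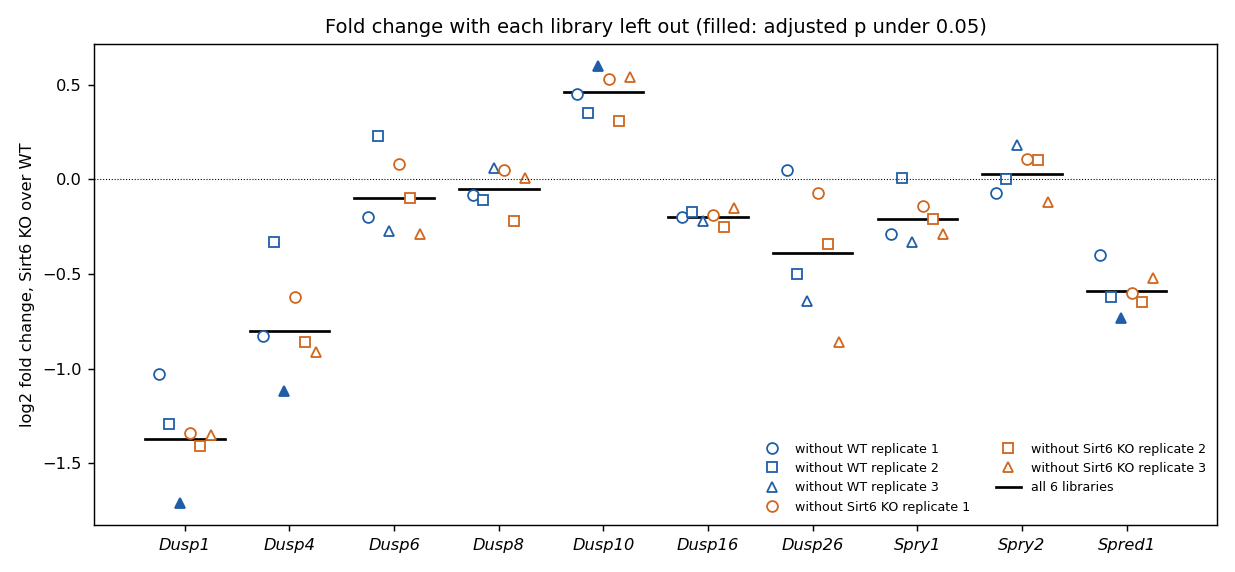
Log2 fold change (vertical axis) of each gene with all 6 libraries (lines) and with each library left out (symbols; filled where edgeR's adjusted p was under 0.05). The filled symbols all belong to the fit without WT library 3, in which *Dusp1*, *Dusp4* and *Spred1* were lower and *Dusp10* was higher; *Dusp6*, *Dusp8*, *Dusp26*, *Spry1* and *Spry2* lay on both sides of 0.

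Levels were compared between genes on the deposited TPM, which is scaled to transcript length. In WT, *Dusp1* had the highest mean of the 10 genes, at 71.7 ± 39.4 TPM (SD, n = 3), followed by *Dusp26* (22.5 ± 12.5), *Dusp8* (16.7 ± 0.678), *Dusp16* (13.8 ± 1.69), *Spry1* (13.2 ± 3.97), *Dusp10* (8.63 ± 0.904), *Dusp6* (7.43 ± 2.92), *Spry2* (7.42 ± 0.519), *Spred1* (3.35 ± 1.07) and *Dusp4* (1.59 ± 0.894). In that order the ranges of neighbors overlapped except between *Dusp8* and *Dusp16*, *Spry1* and *Dusp10*, and *Spry2* and *Spred1*. In the libraries labelled Sirt6 KO, *Dusp1* was again first, at 24.7 ± 1.17 TPM (SD, n = 3), with its range apart from that of *Dusp26* (15.2 ± 7.79), and *Dusp4* was again last, at 0.813 ± 0.167.

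The 10 genes together summed to 217 and 178 TPM in WT libraries 1 and 2 and to between 91.0 and 109 TPM in the other four. *Dusp1* made up 49.3%, 44.6% and 27.9% of that sum in WT libraries 1, 2 and 3, and 26.8%, 23.7% and 21.7% in libraries 1, 2 and 3 labelled Sirt6 KO. Without *Dusp1*, the typical MAPK phosphatases (those with a kinase-binding domain, 10 genes with *Dusp2*, *Dusp5*, *Dusp7* and *Dusp9* included) summed to 60.2, 62.5 and 54.5 TPM in WT and to 49.8, 59.5 and 51.7 TPM in the libraries labelled Sirt6 KO. These sums overlapped between the groups.

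Among 36 DUSP, slingshot, Sprouty and Spred genes of the table, *Dusp1* was in place 4 by mean TPM over the 6 libraries (48.2), behind the atypical phosphatases *Dusp13* (206 TPM), *Dusp3* (107 TPM) and *Dupd1* (81.2 TPM). *Dusp13* and *Dupd1* are known as phosphatases of skeletal muscle. None of these 3, singled out here for their level, passed the threshold in edgeR (adjusted p = 0.339, 0.641 and 0.0513). *Dupd1*, at 17.6, 16.2 and 42.5 CPM in WT and 52.7, 64.4 and 69.5 CPM in the libraries labelled Sirt6 KO, came closest, and WT library 3 was again the WT library nearest to the other group.

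**Figure D4:**
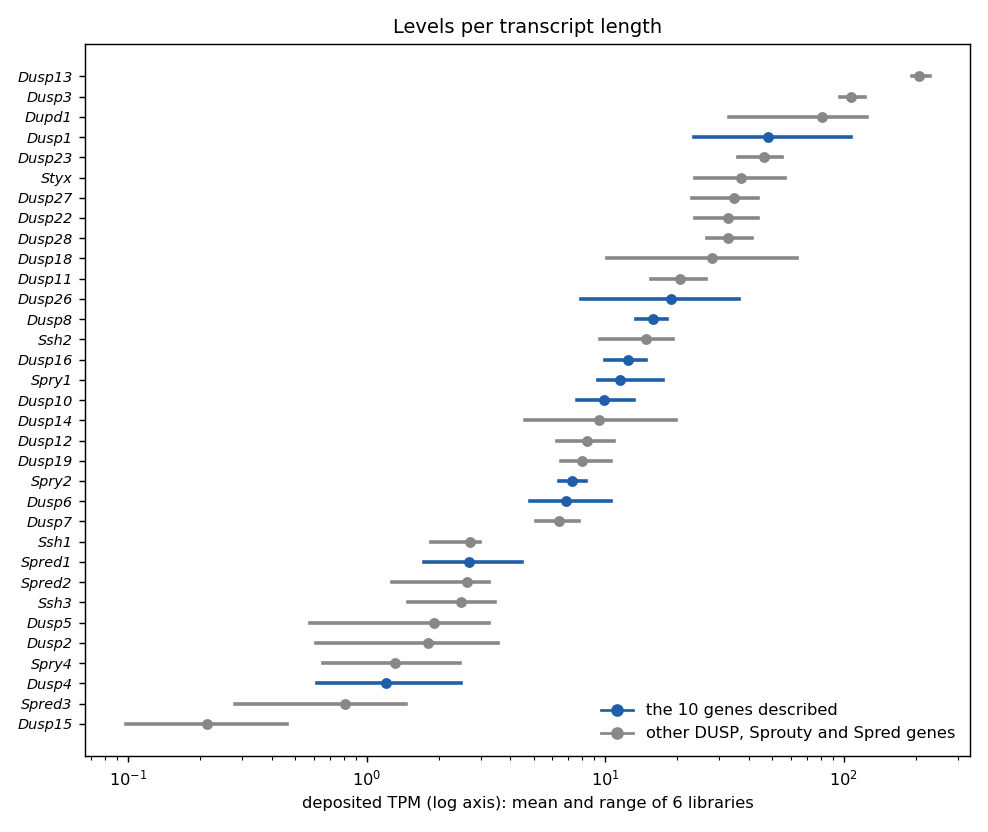
Mean (points) and range (lines) of the deposited TPM over 6 libraries on a log axis, for the 10 genes (blue) and the other DUSP, slingshot, Sprouty and Spred genes with a mean of at least 0.1 TPM (gray). *Dusp1* spanned 23.6 to 107 TPM and *Dusp26* 7.89 to 36.3 TPM, wider than *Dusp8* at 13.4 to 18.1 TPM.

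In the rest of the family, 3 of the 23 genes tested passed. *Dusp2*, an inducible nuclear phosphatase best known in immune cells, was at 1.81 to 2.55 CPM in WT and 0.511 to 0.636 CPM in the libraries labelled Sirt6 KO (log2 fold change -1.92, standard error 0.26). *Dusp5*, an inducible nuclear phosphatase selective for ERK, went the other way, from 0.297 to 0.715 CPM in WT up to 1.12 to 1.91 CPM (log2 fold change 1.53, standard error 0.40). *Dusp11*, an RNA phosphatase rather than a MAPK phosphatase, was at 68.3 to 72.8 CPM in WT and 50.3 to 55.7 CPM in the libraries labelled Sirt6 KO (-0.40, standard error 0.10). Their adjusted p-values were 0.0131, 0.0429 and 0.0324 in edgeR. With the GC trend removed, *Dusp11* (-0.20) and *Dusp5* (1.31) were no longer called, and neither was *Dusp5* without a filter on low counts. Of the remaining typical phosphatases, *Dusp7* did not pass and *Dusp9* had no count. None of *Spry4* (log2 fold change -0.70), *Spred2* (0.64) and *Spred3* (-0.87) passed, and they did not share a direction.

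The other parts of the pathway were read from lists of ligands, receptors, adaptors, kinases, output genes and other inhibitors. Over these lists and the rest of the DUSP and Sprouty family, 14 of the 123 genes tested were lower and 7 higher, or 17.1% together, beside 16.2% of all genes tested. The libraries did not overlap between the groups in any of these 21 genes, and they did not overlap in 40.0% of all genes tested. The 21 genes were picked by the test on these same libraries, which largely fixes their lack of overlap. All 21 also passed without WT library 3, a fit that called 16.2% of all genes lower and 17.0% higher. Without library 1 labelled Sirt6 KO, 0 of the listed genes passed, beside 0.0145% lower and 0.0435% higher of all genes tested. Without library 3 labelled Sirt6 KO, 0 passed as well, beside 0.0362% and 0.0580%. Few genes of any kind were called in these fits.

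Of 11 growth factor ligands tested, 2 were lower and 0 higher. *Hbegf*, a ligand of the EGF receptor, was at 9.94, 26.0 and 14.6 CPM in WT and at 6.03, 6.48 and 6.16 CPM in the libraries labelled Sirt6 KO (log2 fold change -1.43, standard error 0.32). *Vegfa*, the angiogenic growth factor, was at 462, 562 and 283 CPM and at 108, 219 and 183 CPM (-1.36, standard error 0.33). Of 13 receptors, *Met*, the receptor of hepatocyte growth factor, alone passed, and it was lower, at 19.1 to 31.4 CPM in WT and 11.2 to 16.3 CPM in the libraries labelled Sirt6 KO (-0.92, standard error 0.22). Adjusted p-values of the 3 genes were 0.0293, 0.0340 and 0.0327 in edgeR. *Met* was not called with the GC trend removed (-0.78).

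Adaptors, RAS and RAF moved in both directions, with 2 of 15 genes lower and 2 higher. *Sos2*, an exchange factor that activates RAS, was at 87.4 to 98.9 CPM in WT and 55.1 to 56.5 CPM in the libraries labelled Sirt6 KO (log2 fold change -0.72, standard error 0.10). The adaptor *Shc1* (0.55, standard error 0.11) and the scaffold *Ksr1*, which holds RAF, MEK and ERK together, were higher; *Ksr1* was at 158 to 215 CPM in WT and 272 to 375 CPM in the libraries labelled Sirt6 KO (0.87, standard error 0.18). The adjusted p-values of *Sos2*, *Shc1* and *Ksr1* lay between 0.0131 and 0.0228 in edgeR. With the GC trend removed, *Shc1* (0.41) and *Ksr1* (0.64) were no longer called.

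Among 16 upstream kinases tested, *Map3k2* (log2 fold change -1.27, standard error 0.18) and *Map3k14* (-1.41, standard error 0.35) were lower and none was higher. *Map3k2*, which activates the ERK5 and JNK branches, was at 20.4 to 33.2 CPM in WT and 11.2 to 11.5 CPM in the libraries labelled Sirt6 KO. Of 11 MAPKs, the genes of ERK1 (*Mapk3*), of JNK (*Mapk8* and *Mapk9*) and of muscle p38 (*Mapk14* and *Mapk12*), which are substrates of the phosphatases above, did not pass. *Mapk7*, which encodes ERK5, was higher, at a mean of 5.45 ± 0.510 CPM (SD, n = 3) against 2.63 ± 0.334 CPM (SD, n = 3) in WT (1.05, standard error 0.18), and *Mapk6*, an atypical MAPK, was lower (-0.65, standard error 0.12). Among 11 kinases downstream, *Mknk2*, which phosphorylates a translation initiation factor, was lower (-0.81, standard error 0.19) and *Rps6ka4*, a nuclear kinase that acts on histones and CREB, was higher (0.47, standard error 0.12). The adjusted p-values of these 6 genes lay between 0.0132 and 0.0378 in edgeR. The estimate of *Rps6ka4* was 0.21 and not called with the GC trend removed.

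Of 11 output genes of ERK signaling, 1 passed. *Fos* was at 63.0, 22.3 and 8.50 CPM in WT libraries 1, 2 and 3 and at 2.68, 4.12 and 2.00 CPM in the libraries labelled Sirt6 KO (log2 fold change -3.41, standard error 0.71, with an adjusted p of 0.0236 in edgeR). Like *Dusp1*, it was lowest among WT in library 3, with a spread in WT larger than in the other group. The other ten, among them *Etv4*, *Etv5*, *Myc* and *Ccnd1*, did not pass, and the median of the list was -0.61. Of 12 other inhibitors of RAS and ERK tested, *Errfi1*, an induced inhibitor of the EGF receptor, and *Ptprr*, a tyrosine phosphatase of ERK, were lower, whereas *Pebp1*, which binds RAF, and *Lztr1*, an adaptor for RAS degradation, were higher. *Errfi1* was at 84.8, 78.8 and 48.2 CPM in WT and at 34.7, 31.6 and 20.1 CPM in the libraries labelled Sirt6 KO (-1.29, standard error 0.27, adjusted p = 0.0240, edgeR). With the GC trend removed, *Pebp1* went from 0.54 to 0.32 and *Lztr1* from 0.41 to 0.26, and neither was called; *Ptprr* (-1.78) also lost its call. These 3 were not called without a filter on low counts either.

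**Figure D5:**
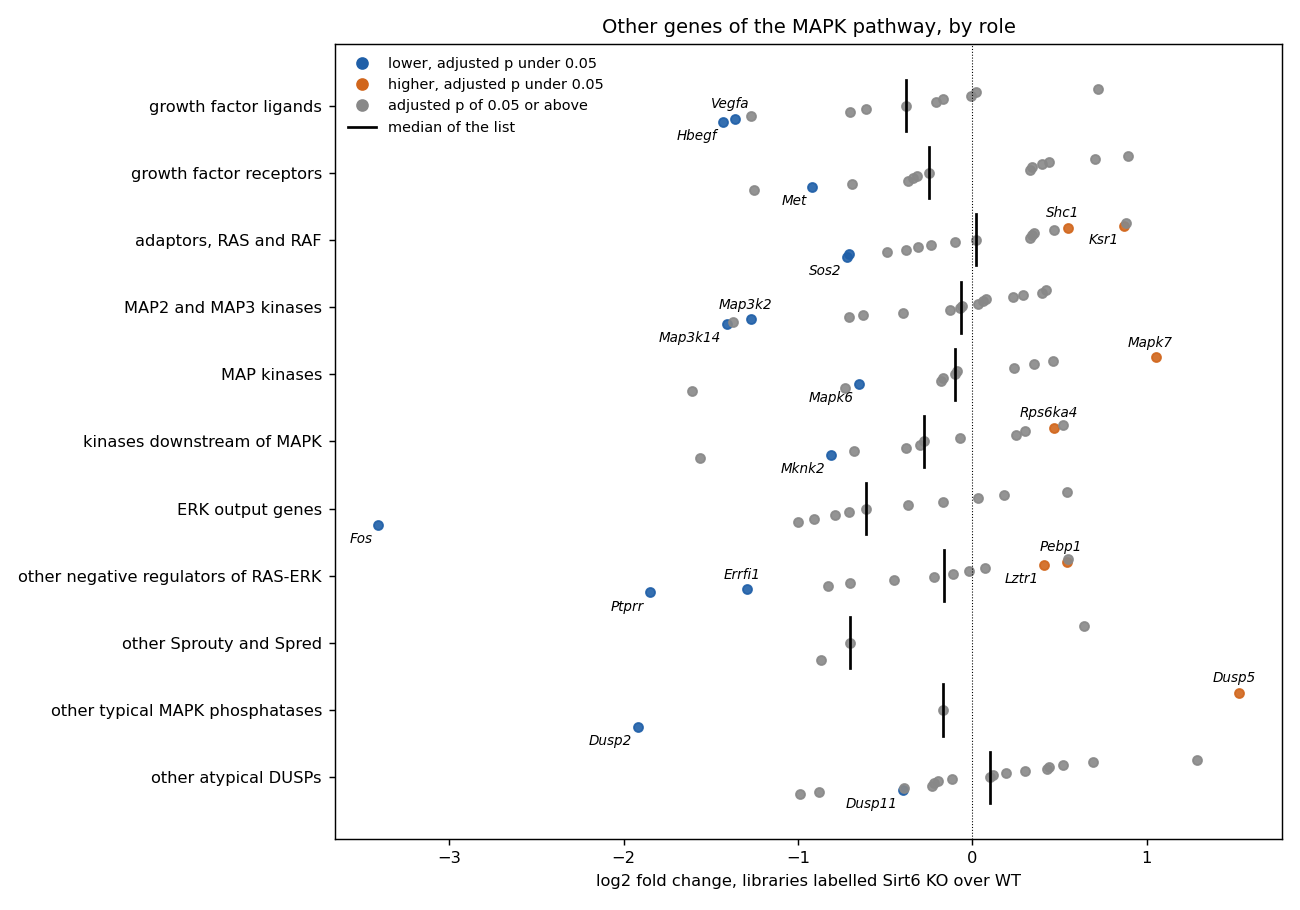
Log2 fold change (horizontal axis, libraries labelled Sirt6 KO over WT) of the 123 tested genes of the pathway lists, one point per gene, with the list median as a line. Genes with an adjusted p under 0.05 are in color, 14 lower (blue) and 7 higher (orange), and those described in the text are named, with *Fos* at -3.41 farthest from 0.

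The 5 genes whose level over the 6 libraries was most like that of *Dusp1*, by the root mean square difference of mean-centered log2 CPM, were *Slc35e2* (0.109), *Btg2* (0.124), *Coro2a* (0.144), *Aldh1a1* (0.150) and *Pls3* (0.167). *Btg2*, an antiproliferative gene that is itself rapidly inducible, was at 37.6, 37.8 and 13.8 CPM in WT and at 10.3, 12.6 and 9.99 CPM in the libraries labelled Sirt6 KO. *Aldh1a1*, a retinaldehyde dehydrogenase, was at 147, 117 and 57.7 CPM in WT and at 38.9, 46.6 and 32.4 CPM in the other group. The likeness is a description over 6 libraries and includes the difference between the groups.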

How the data were processed

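RNA-seq libraries of GAS muscle from 3 animals labelled WT and 3 labelled Sirt6 KO were analyzed, grouped by their sample labels. The authors sequenced poly-A RNA with paired-end reads of 100 bp. Per the labels, the submitters' processing notes name HISAT2 2.1.0, Bowtie2 2.3.4.1, StringTie 2.1.3b and mm10, while the reporting summary names STAR; whether strand was used in counting is not given in the sources used here. The deposited counts per gene are whole numbers from StringTie without normalization. The FPKM values deposited by the authors are scaled to transcript length and library size, and their deposited TPM values to length and a fixed sum.

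Counts were tested with edgeR 4.0.16 in R 4.3.3 (filterByExpr, TMM, quasi-likelihood fit on group alone, Benjamini-Hochberg over all 13801 genes tested, threshold 0.05). The study's methods describe quantile-normalized log2(FPKM + 1), and the study names DESeq2's Wald test for this comparison elsewhere; both were run as alternatives, with limma and DESeq2. Standard errors were derived from the test and 95% intervals from its degrees of freedom. CPM was taken with TMM library sizes; 1 count was worth 0.0165 to 0.0212 CPM, and intervals on animals, not counting error, set the precision. Exact permutation tests used log2 CPM (SciPy 1.17.1). Alternatives were DESeq2 1.42.0, its size factors, no filter, at least 10 counts in every library, limma 3.58.1 for genes above 1 FPKM in a library, with quantile normalization and a pseudocount of 1 or 0.1 before log2, the replicate block, each library left out, a lowess trend over GC content (span 0.3; GENCODE M21 transcripts, 99.4% of genes) and slow fiber markers as a covariate. The scripts were tested on simulated data. The genes and lists were chosen with earlier results of these data known. Named genes were the 10 members, *Sirt6*, up to 5 called genes per list, the 5 nearest in pattern and the most abundant markers; *Spry3* and *Map3k20* were listed but not matched by symbol. Some genes of the lists are counted but not reported here by name. Promoters are RefSeq's on GRCm38.p6, the build of mm10. Replicate libraries differed by far more than counting noise, and nothing shows that separate litters or cages were used.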

Additional observations from a re-analysis of the deposited data

How the results depend on the processing

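Of the 10 genes, the count called lower was 1, and it was 2 with DESeq2 and with the slow fiber covariate (*Dusp1* and *Spred1*) and 0 with limma on log2(FPKM + 1), log2(FPKM + 0.1) and the replicate block. With each library left out it ranged from 0 to 3, and the count called higher from 0 to 1. The labels number the libraries within each group and do not say that equal numbers pair animals. Same-numbered libraries deviated together with correlations of -0.106, 0.260 and 0.161, and differently numbered ones with -0.340 to 0.209. With 3 libraries per group, these correlations cannot decide whether the numbers pair the animals. Under the replicate block *Dusp1* was at -1.24 (adjusted p = 0.0565, edgeR), with 1018 genes lower and 904 higher. *Dusp11*, *Pebp1*, *Lztr1*, *Map3k14* and *Rps6ka4* were no longer called under that block. Over all genes, 1158 were lower and 1084 higher, which became 1801 and 1730 with DESeq2, 483 and 468 with the GC trend removed, and 2098 and 2065 with the slow fiber covariate. Leaving out 1 library gave 2 to 2235 lower and 6 to 2350 higher, the lowest without library 1 labelled Sirt6 KO and the highest without WT library 3. Of the pathway genes, 14 were lower and 7 higher. These became 25 and 16 with DESeq2 and 28 and 22 with the slow fiber covariate; the higher ones alone became 4 without a filter, 17 and 16 with limma on log2(FPKM + 1) and log2(FPKM + 0.1), and 2 with the GC trend removed. Leaving out 1 library gave 0 to 29 lower and 0 to 20 higher. Estimates that changed sign with 1 library left out were those of *Dusp6* (-0.29 to 0.23), *Dusp8* (-0.22 to 0.06), *Dusp26* (-0.86 to 0.05), *Spry1* (-0.33 to 0.01) and *Spry2* (-0.12 to 0.18). The cause was not tested, beyond the fewer samples in each such fit. *Dusp4*, with 43 to 126 counts per library, is the gene most limited by depth.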

Other observations

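*Dusp18*, an atypical phosphatase singled out after its values were seen, was high in the libraries with high slow fiber markers. It was at 67.3, 130 and 35.3 CPM in WT libraries 1, 2 and 3 and at 22.6, 77.5 and 26.0 CPM in libraries 1, 2 and 3 labelled Sirt6 KO, and the 3 libraries above 60 CPM were those with the highest summed slow fiber markers (3580, 2950 and 2110 CPM). Between the labelled groups it changed by -0.88 on the log2 scale (standard error 0.59), which did not pass (adjusted p = 0.320 in edgeR).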
